A study of Mus musculus with 4 samples.

Results

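The Schlafen genes of the mouse lie side by side on chromosome 11 and encode growth-regulating proteins, many of them induced by type I interferon. The 7 protein-coding members Slfn1, Slfn2, Slfn3, Slfn4, Slfn5, Slfn8 and Slfn9 are described here, out of 19938 genes with a single gene symbol. Members were chosen by their symbol, Slfn followed by a digit. The probe set of a gene was selected on its mean over the 4 arrays, the highest being kept, but each of the 7 has 1 probe set, so this step changed nothing. The same pattern also takes the pseudogene Slfn10-ps and Slfn5os, a non-coding RNA, which are not counted as members.

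Transcripts were measured on Affymetrix whole-transcript arrays in cells from C57BL/6 mouse bone marrow. The LMPP array holds a pool of wild-type lymphoid-primed multipotent progenitors, sorted as lineage-negative, Sca1+, Kit+ and Flt3 high, after 48 hours in the cytokine medium used for transduction. The 2 Tcf1 arrays, labelled as biological replicates, hold cells grown from wild-type LMPPs that were given a retrovirus carrying Tcf1, a T cell transcription factor, together with the fluorescent reporter VEX. Their stroma was OP9, a line from bone marrow stroma that was not engineered to present a Notch ligand. The control array holds cells from LMPPs given the VEX vector alone and grown on OP9-DL4, stroma that presents the Notch ligand DL4. Both cultures received IL7 at 1 ng/ml and Flt3 ligand at 5 ng/ml, and on day 10 live CD45.2+ Mac1- Gr1- Thy1+ CD25+ cells were sorted from both. Tcf1 and control cells therefore differ in vector and in stroma, and both differ from LMPPs in time, stroma, the gate of the sort and probably virus, which the LMPP label does not mention, and these cannot be told apart.

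Schlafen proteins are known from lymphocytes and macrophages, where they bear on proliferation, on the quiescence of T cells and on defence against viruses. By structure they fall into a short group (Slfn1 and Slfn2), an intermediate group (Slfn3 and Slfn4) and a long group (Slfn5, Slfn8 and Slfn9) whose extra C-terminal part resembles a helicase. Type I interferon acts through its receptor and the kinases Jak1 and Tyk2 on a complex that holds Stat2 and Irf9 and binds the interferon-stimulated response element in the promoters of its target genes.

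The cluster is taken here as the span of the 7 members. It runs from Slfn5 to Slfn3 over 263.8 kb (GRCm38.p6, chr11:82951349-83215154), in the order Slfn5, Slfn9, Slfn8, Slfn10-ps, Slfn2, Slfn1, Slfn4, Slfn3. RefSeq promoters of GRCm38.p6, from 250 bases before to 50 after an annotated start, were found for all 7 members, with 2 starts for Slfn8. They were searched on both strands for GAAA, any 2 bases and GAAA again, a short form of the interferon-stimulated response element. These letters stand in the promoters of the long members and in none of the other 4 members. Only exact matches were counted, so near forms of the word in those 4 were not looked for. The promoters of the long members are shown because they hold this word, which is in capitals. Slfn5 spans chr11:82951852-82952151 on the plus strand, Slfn9 chr11:82991781-82992080 and Slfn8 chr11:83020761-83021060, both on the minus strand.
Slfn5: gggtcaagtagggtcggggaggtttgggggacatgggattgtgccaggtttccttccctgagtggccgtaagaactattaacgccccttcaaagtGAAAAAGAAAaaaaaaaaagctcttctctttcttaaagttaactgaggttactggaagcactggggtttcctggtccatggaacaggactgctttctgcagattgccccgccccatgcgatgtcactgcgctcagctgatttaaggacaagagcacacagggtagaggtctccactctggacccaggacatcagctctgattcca
Slfn9: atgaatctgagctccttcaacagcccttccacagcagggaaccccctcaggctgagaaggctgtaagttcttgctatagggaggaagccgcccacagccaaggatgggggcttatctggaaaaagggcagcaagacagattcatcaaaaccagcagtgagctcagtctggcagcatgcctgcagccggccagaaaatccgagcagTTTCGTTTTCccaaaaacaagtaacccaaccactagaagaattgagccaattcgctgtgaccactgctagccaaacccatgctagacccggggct
Slfn8: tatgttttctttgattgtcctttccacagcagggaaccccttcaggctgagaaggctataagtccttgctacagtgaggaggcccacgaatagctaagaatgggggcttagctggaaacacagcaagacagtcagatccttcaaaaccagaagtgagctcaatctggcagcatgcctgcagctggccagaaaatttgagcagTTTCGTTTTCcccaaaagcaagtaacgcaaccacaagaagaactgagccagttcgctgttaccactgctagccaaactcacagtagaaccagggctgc
In Slfn5 the word reads GAAAAAGAAA and begins 155 bases before the start, in an A-rich stretch. The Slfn5 window lies inside the gene, whose span begins at chr11:82951349, and the bases before that end were not searched. In Slfn9 and Slfn8 the word lies on the opposite strand, where the printed strand reads TTTCGTTTTC, and begins 45 and 48 bases before the start. The window of the other Slfn8 start holds the same copy. Over 273 aligned bases the Slfn9 and Slfn8 promoters are 88.3% identical.

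Of all 32851 promoter windows in the table, 1131 (3.44%) hold the interferon-type word, or 3.99% of 27025 genes. Of 21 interferon-induced genes with a promoter there, 12 hold it. A second search used TTCNNNGAA, a short form of the gamma-activated sequence, which reads alike on both strands. It matched 0 of the 8 Schlafen windows and 8.30% of all windows. The letters CTTTGAT or CTTTGAA, read by Tcf1 and its relatives, matched in 8.65% of all windows and in 2 of the 7 members. In Slfn5 this word begins 163 bases before the start, next to the interferon-type word, and the 2 words do not overlap. In Slfn8 it begins 242 bases before the start. A match is a run of letters and not a measured binding site.

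The promoters of the short and intermediate members share another word. The longest run of letters present in all 4 of them, on either strand, is the 9-letter word ACTTCCTGG, which holds on its other strand the GGAA core read by Ets factors. It was looked for after the sequences were seen, and stands in 277 of all windows (0.843%). The 4 sites are shown with their surroundings on the plus strand, the word in capitals, at chr11:83065042-83065080 (Slfn2), chr11:83116731-83116769 (Slfn1), chr11:83175098-83175136 (Slfn4) and chr11:83191273-83191311 (Slfn3).
Slfn2: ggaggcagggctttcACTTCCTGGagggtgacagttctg
Slfn1: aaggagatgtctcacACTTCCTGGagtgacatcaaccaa
Slfn4: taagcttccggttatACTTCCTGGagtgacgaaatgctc
Slfn3: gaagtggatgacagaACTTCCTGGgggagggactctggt
The word begins 55, 74, 73 and 42 bases before the start in Slfn2, Slfn1, Slfn4 and Slfn3. Its presence in these 4 members is how it was defined. The 3 members with the interferon-type word lie next to each other at the Slfn5 end of the cluster.

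**Figure D1:**
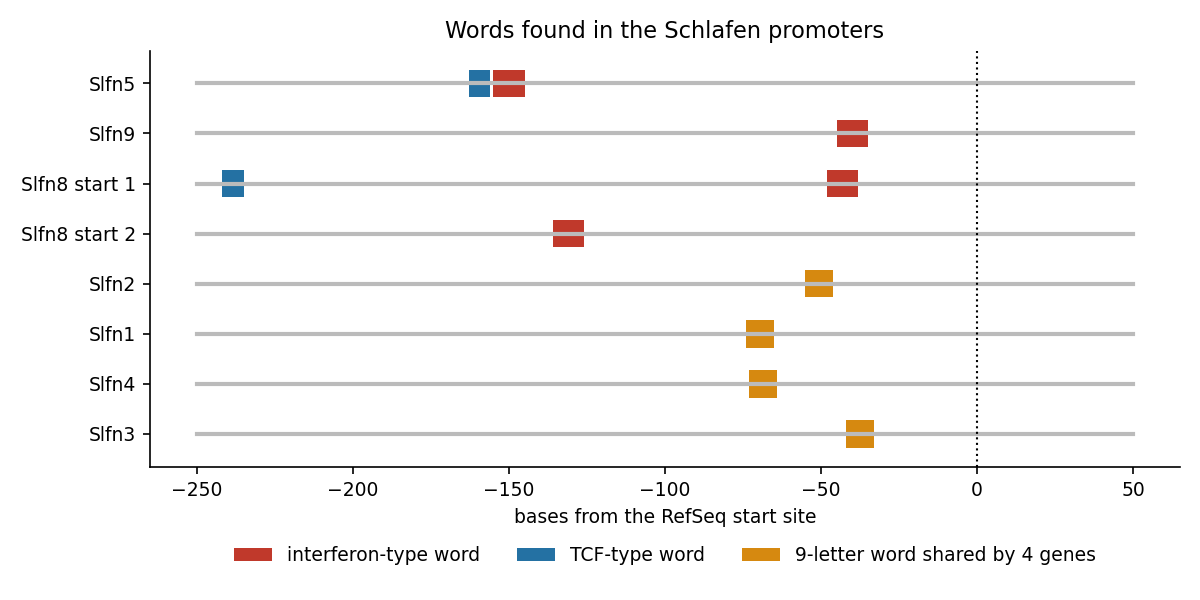
Positions of the searched words in the 8 Schlafen promoter windows, in bases from the RefSeq start site (dotted line), with members in chromosomal order from top to bottom. The interferon-type word stands in Slfn5, Slfn9 and both windows of Slfn8, and the 9-letter word in Slfn2, Slfn1, Slfn4 and Slfn3 within 42 to 74 bases before the start.

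The arrays had medians between 7.47 and 7.59 on the log2 scale over the 19938 genes, and precision is limited by their number. The sort markers were high in the sorted cells, with Il2ra (CD25) at 6.88 in LMPPs, 12.91 and 12.99 in the Tcf1 arrays and 13.64 in the control array. Cd3g, a chain of the T cell receptor complex, was at 6.48 and 6.64 in the Tcf1 arrays and 13.001 in the control array. Tcf7, which encodes Tcf1, is not analysed here. Differences involving Tcf1 cells were tested with limma over all genes, where the only measure of spread is the difference within the Tcf1 pair, taken to hold for the single arrays too. The labels do not say whether the pair came from separate mice or transductions, so p-values measure only the spread between these samples. An array level reflects a probe set's own brightness, so levels are compared between arrays and not between genes. The cell mixture was measured in bulk, so fewer cells of a type and less RNA per cell cannot be told apart.

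Schlafen transcripts were higher in Tcf1 cells than in LMPPs for 4 of the 7 members, and lower for none, at an adjusted p under 0.05. These were Slfn5, Slfn8, Slfn2 and Slfn1, with folds of 7.38, 2.75, 2.52 and 1.98. Of all genes 3.06% were called in this comparison, made up of 1.75% higher and 1.31% lower. Against control cells Slfn1 and Slfn5 were higher, 2.18-fold and 1.77-fold, and no member was lower, where 4.38% of all genes were called (1.9% higher, 2.49% lower). The 2 comparisons share the Tcf1 arrays, and 100 genes (0.502%) passed as higher in both. At an unadjusted p under 0.05 in limma, 6 members were higher against LMPPs (5.33% of all genes) and 1, Slfn3, was lower (9.22% of all genes). Against control cells 6 were higher (5.72% of all genes) and 0 lower (8.37% of all genes).

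Slfn5, a long member that acts in the nucleus, had the largest difference of the members from LMPPs. It read 5.59 in the LMPP array, 8.45 and 8.49 in Tcf1 replicates 1 and 2, and 7.65 in the control array. Both Tcf1 arrays lay far above the LMPP array and above the control array, with the control array between. The rise over LMPPs was 2.88 (SE 0.16, adjusted p = 4.7e-04, limma), and the rise over control cells 0.82 (SE 0.16, adjusted p = 0.0386, limma). The control array lay 2.06 above the LMPP array, or 4.18-fold, without replicates. On the LMPP array Slfn5 was brighter than 16.0% of genes, so its level there was near the dim end, and on the Tcf1 arrays than 65.5% and 63.1%. Slfn5os, whose gene overlaps that of Slfn5, read 6.65, 6.37, 6.71 and 6.43 on the LMPP, Tcf1 and control arrays, and differed by -0.11 from LMPPs (adjusted p = 0.917, limma).

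Slfn8, another long member, read 7.64 in LMPPs, 9.09 in both Tcf1 arrays and 8.41 in the control array. The order of the arrays was that of Slfn5, with a smaller span. Slfn8 rose by 1.46 over LMPPs (SE 0.16, adjusted p = 0.00536, limma). Against control cells its difference of 0.68 did not pass (adjusted p = 0.0749, limma). The Tcf1 pair differed by 0.00073, less than in nearly all genes, and the fit raised this spread toward that of other genes.

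Slfn9, the long member next to Slfn8, read 8.27 in LMPPs, 8.87 and 9.10 in the Tcf1 arrays and 8.31 in the control array. Its LMPP and control arrays lay 0.04 apart, within the 0.22 between the Tcf1 replicates, and both Tcf1 arrays lay above them. The differences of 0.72 from LMPPs (adjusted p = 0.099, limma) and 0.68 from control cells (adjusted p = 0.103, limma) did not pass. Slfn8 and Slfn9 are close relatives, and a probe set of either could also read transcripts of the other. This was not tested, since probe sequences were not used here.

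**Figure D2:**
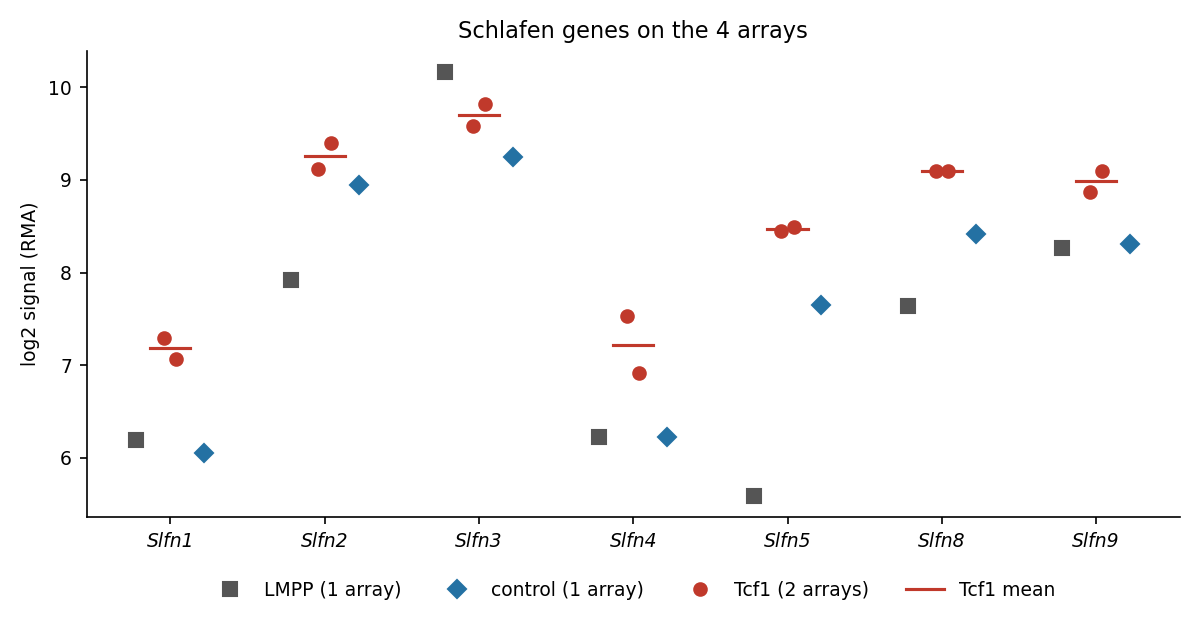
Log2 signal of each Schlafen gene on the 4 arrays, with the LMPP array as a square, the Tcf1 arrays as circles with a bar at their mean and the control array as a diamond. Both Tcf1 arrays lie above the LMPP and control arrays for 6 of the 7 genes, Slfn3 being the exception, whose LMPP array is highest at 10.17.

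Slfn2, a short member whose loss in mice leaves T cells unable to stay quiescent, read 7.92 in LMPPs, 9.12 and 9.40 in the Tcf1 arrays and 8.94 in the control array. Tcf1 and control arrays were close to each other and well above LMPPs. Slfn2 rose by 1.34 over LMPPs (SE 0.19, adjusted p = 0.0134, limma), while the 0.32 to control cells was little more than the 0.28 between the Tcf1 replicates and did not pass (adjusted p = 0.588, limma). The control array lay 1.02 above the LMPP array, without replicates.

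Slfn1, the other short member, which slows thymocyte growth when overexpressed, read 6.19 in LMPPs, 7.29 and 7.07 in the Tcf1 arrays and 6.06 in the control array. Here the LMPP and control arrays lay 0.14 apart, less than the 0.22 between the Tcf1 replicates, and only the Tcf1 arrays stood out. On the LMPP and control arrays Slfn1 was brighter than 26.2% and 23.8% of genes, near the dim end. Slfn1 was higher by 0.99 than in LMPPs (SE 0.18, adjusted p = 0.0349, limma) and by 1.13 than in control cells (SE 0.18, adjusted p = 0.0164, limma). After renewed quantile normalization the difference from LMPPs was 0.93 and no longer passed (adjusted p = 0.0659, limma).

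Slfn4, an intermediate member known from macrophages, had a similar pattern with more spread. It read 6.22 in both the LMPP and the control array, and 7.53 and 6.92 in Tcf1 replicates 1 and 2. On the LMPP and control arrays Slfn4 was brighter than 26.6% and 26.7% of genes, near the dim end. Both Tcf1 arrays were above the others, but the replicates themselves lay 0.61 apart, further than in 97.6% of genes. The differences of 1.0006 from LMPPs (SE 0.26, adjusted p = 0.113, limma) and 1.0 from control cells (SE 0.26, adjusted p = 0.1, limma) did not pass. Taken against LMPPs, replicate 1 by itself gave 1.31 and replicate 2 by itself 0.70, and the mean difference passed when genes below the 25th percentile were left out (adjusted p = 0.0154, limma).

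Slfn3, the other intermediate member, was the exception in the family. It read 10.17 in LMPPs, 9.58 and 9.82 in the Tcf1 arrays and 9.25 in the control array. The LMPP array was thus highest and the control array lowest, with both Tcf1 arrays between. The differences of -0.47 from LMPPs (adjusted p = 0.289, limma) and 0.45 from control cells (adjusted p = 0.318, limma) did not pass. The control array lay 0.91 below the LMPP array, without replicates.

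**Figure D3:**
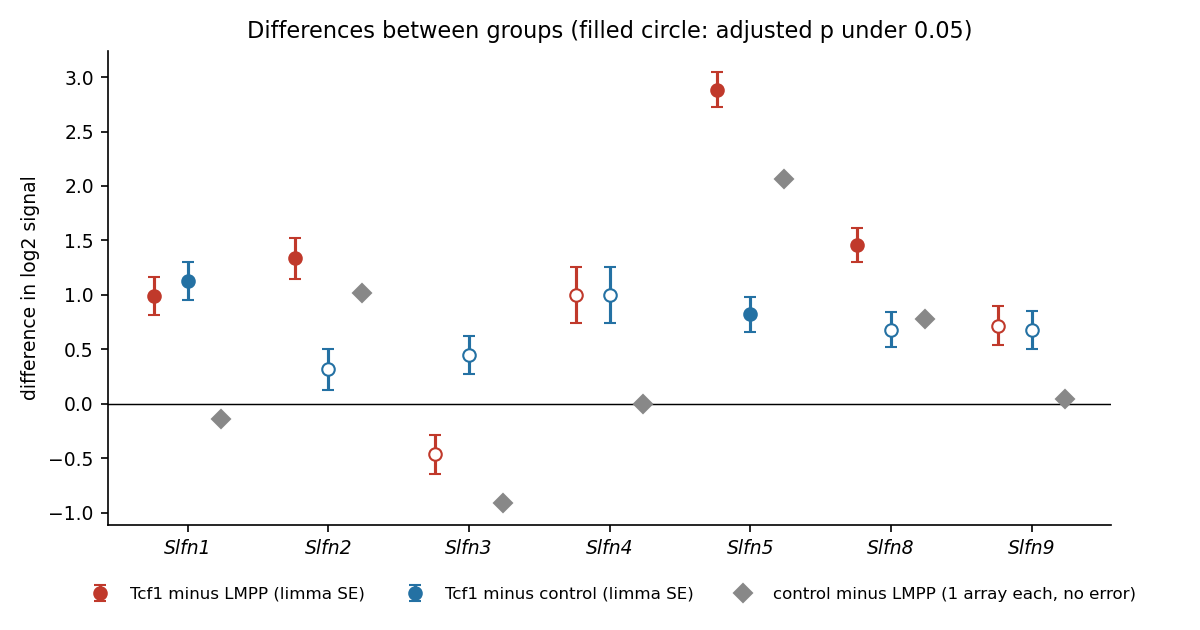
Differences in log2 signal between groups for each Schlafen gene, with limma standard errors for the Tcf1 comparisons and no error for control minus LMPP, which sets 1 array against 1. Filled circles passed at an adjusted p under 0.05, which are Slfn1, Slfn2, Slfn5 and Slfn8 against LMPPs and Slfn1 and Slfn5 against control cells.

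Across the family, both Tcf1 arrays lay above the LMPP and the control array for 6 of 7 members, against 19.3% of all genes. Both lay above the LMPP array for 6 of 7 (35.8% of all genes) and above the control array for 7 of 7 (38.6% of all genes). The median difference of the members was 1.0006 from LMPPs and 0.68 from control cells, beside 0.0047 and 0.02 over all genes. Between control cells and LMPPs, 2 of 7 members were at least 2-fold apart, Slfn5 and Slfn2, both higher in control cells, against 5.53% of all genes in either direction and 3.17% higher in control cells. The members' median there was 0.04, beside -0.01 over all genes. The members were chosen as a family with results known, so these counts describe them and are not independent evidence.

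The order LMPP, control and Tcf1 from low to high held in 5 of 7 members, against 9.21% of all genes, though in Slfn4 and Slfn9 the LMPP and control arrays were nearly equal. The members fell into 3 patterns by how the control array stood. In Slfn5, Slfn8 and Slfn2 it lay between LMPPs and Tcf1 cells, 0.78 to 2.06 above the LMPP array. In Slfn1, Slfn4 and Slfn9 it lay within 0.14 of the LMPP array. Slfn1 and Slfn4 were near the dim end on both arrays, brighter than 23.8% to 26.7% of genes. A difference between the LMPP and control arrays could therefore be missed in Slfn1 and Slfn4. In Slfn3 the control array lay below all others. As a distance over the 4 arrays after each gene was centred on its mean, the closest members were Slfn1 and Slfn4 (0.30) and Slfn2 and Slfn8 (0.36), and the farthest were Slfn3 and Slfn5 (2.81). The long members Slfn8 and Slfn9 lay 0.66 apart. The patterns by the control array cut across the structural groups, on 4 arrays and without a test.

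By the same distance, the genes most like Slfn5 were Il7r (0.19), the receptor chain for IL7, Ddx58 (0.33), a sensor of viral RNA, and Oasl2 (0.34), an interferon-induced protein. Il7r read 9.27 in LMPPs, 12.11 and 12.33 in the Tcf1 arrays and 11.51 in the control array. Nearest to Slfn8 were Lgals3bp (0.15), Rab44 (0.15) and Ifi206 (0.18), the last an interferon-inducible family member. Nearest to Slfn2 were Itgb2 (0.08), an integrin chain of leukocytes, Pld3 (0.10) and Tmem120b (0.11). Within a distance of 0.3 there was 1 gene for Slfn5, 13 for Slfn8 and 29 for Slfn2. Predicted, clone-named and Schlafen genes were left out of this search. The distance is not scaled to a gene's span, so the counts also depend on how far apart a gene's arrays lie. These distances rest on 4 arrays, without a test.

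Interferon-induced genes were higher together with the Schlafen genes. Of 27 measured members of a fixed list, 22 rose over LMPPs, 0 fell and 5 did not pass, with a median of 1.37. Rtp4, a chaperone induced by interferon, rose by 4.15 (adjusted p = 2.8e-04, limma), Oas2, a sensor of double-stranded RNA, by 3.67, Oasl2 by 3.12 and Ddx58 by 2.88. Ifit2 differed by 0.18 and did not pass. Against control cells 9 of the 27 were higher and 0 lower in limma, with 17 higher and 0 lower at an unadjusted p under 0.05. Oas2 was higher there by 2.18, while Dhx58 differed by -0.25 and Parp14 by -0.01 without passing. Between control cells and LMPPs 10 of the 27 were at least 2-fold higher and 0 lower.

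Upstream of these genes the picture was mixed. No interferon ligand passed in limma in either comparison (0 of 6, and 0 at an unadjusted p under 0.05), with medians of 0.09 and 0.05. The median ligand level was 6.02 in LMPPs, 6.15 and 6.08 in the Tcf1 arrays and 6.00 in the control array. This was below the 25th percentile of genes on each array (6.12 to 6.21), so a difference in these dim probe sets could be missed. Ifnb1 differed by -0.04 from LMPPs and Ifna4 by 0.09. Of 13 measured receptors and signalling proteins 3 rose over LMPPs and 0 fell, with 4 higher and 0 lower at an unadjusted p under 0.05 in limma. Irf7, a transcription factor that is itself induced by interferon, rose by 1.99 (adjusted p = 0.00167, limma). Irf9, the DNA-binding part of the interferon complex, rose by 1.04, and Ifngr1, a receptor chain for interferon gamma, by 0.88. Stat2 differed by 0.70 (adjusted p = 0.088, limma) and did not pass. Against control cells Ifngr2 was higher by 0.99 and Irf1, a transcription factor induced by interferon gamma, was lower by 1.12.

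Of the genes of T cell quiescence, the setting in which Slfn2 is best known, 2 passed as higher than in LMPPs, beside 1.75% of all genes. Of 13 measured, Cdkn2c, a cell cycle inhibitor, rose by 1.41 over LMPPs and Btg2, an antiproliferative factor, by 0.99, while 11 did not pass and 0 fell, with 5 higher and 0 lower at an unadjusted p under 0.05 in limma, and the median was 0.31. Against control cells none was higher and Klf4, a transcription factor of resting cells, was lower by 2.77 (adjusted p = 8.9e-04, limma), with 4 lower and 0 higher at an unadjusted p under 0.05 and a median of -0.24. Between control cells and LMPPs 5 of the 13 were at least 2-fold higher in control cells and 0 lower, beside 3.17% and 2.36% of all genes. No cell cycle gene of 11 passed in either comparison in limma, with 5 lower and 0 higher against LMPPs at an unadjusted p under 0.05, and 1 lower against control cells. The cell cycle median was -0.40 against LMPPs.

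**Figure D4:**
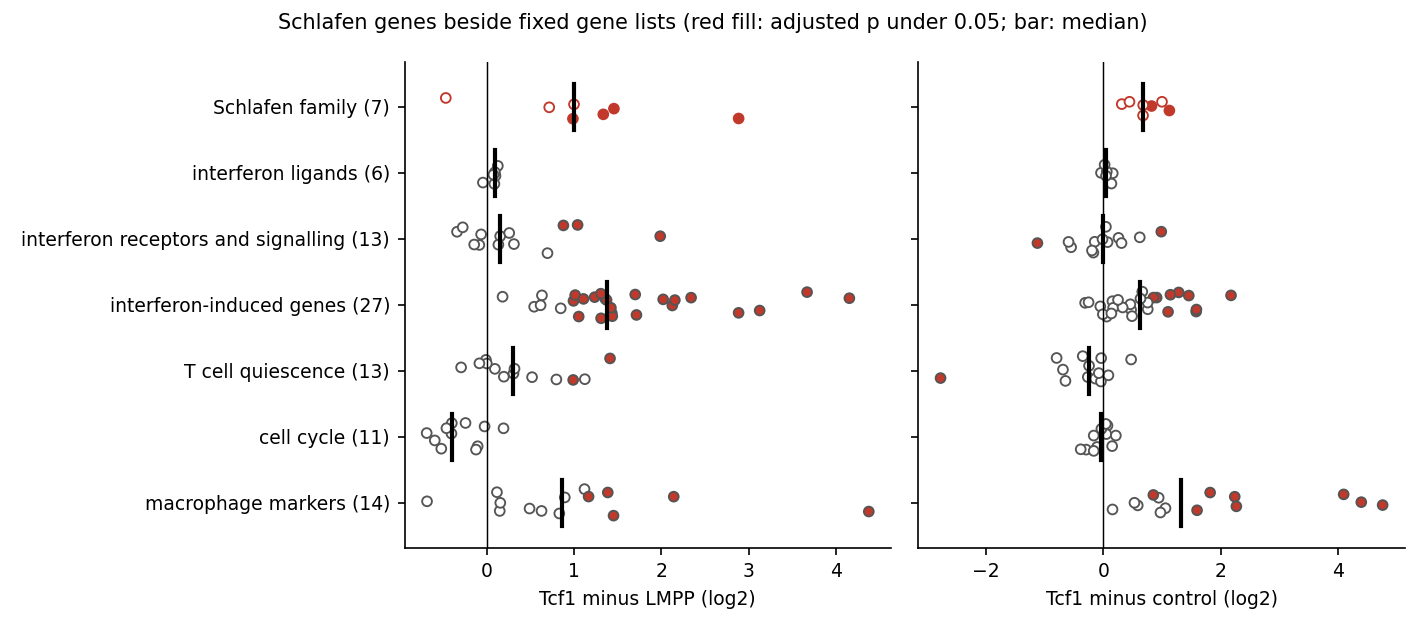
Differences in log2 signal of the Schlafen genes and of genes in fixed lists, for Tcf1 minus LMPP on the left and Tcf1 minus control on the right, with a bar at each list's median, filled points past an adjusted p of 0.05 and the number measured in brackets. Against LMPPs the median is 1.0006 for Schlafen genes, 1.37 for interferon-induced genes and 0.86 for macrophage markers, and interferon ligands lie near 0 (lists of other cell type markers are not drawn).

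Macrophage markers were mostly higher in Tcf1 cells too, but tended to be lower in control cells than in LMPPs. Of 14 measured, 5 rose over LMPPs and 8 were higher than in control cells, with none lower in limma, and medians of 0.86 and 1.33. The mean difference was above 0 for 13 of 14 against LMPPs and for 14 of 14 against control cells, and no marker was below the 25th percentile of genes on either Tcf1 array. Between control cells and LMPPs 0 of the 14 were at least 2-fold higher in control cells and 6 were lower. The median there was -0.62, beside 0.76 for the interferon-induced genes. Adgre1, a macrophage surface receptor, read 6.89 in LMPPs, 11.10 and 11.43 in the Tcf1 arrays and 6.51 in the control array. The summed linear signal of the 14 markers was 4446 in LMPPs, 9995 and 12776 in Tcf1 replicates 1 and 2, and 1810.2 in the control array. Within the Tcf1 pair this sum and 5 members were higher in replicate 2, and Slfn1 and Slfn4 were higher in replicate 1. Among the 5, Slfn8 differed by only 0.00073 and Slfn5 by 0.04. The median over all genes was also higher in replicate 2, at 7.59 beside 7.47, so this count does not separate the members from a shift of the array. The summed signal of the 27 interferon-induced genes was 6045 in LMPPs, 21015 and 18557 in the Tcf1 arrays and 13594 in the control array. Of 12 neutrophil markers 1 rose and 5 fell against LMPPs, and 4 were higher and 0 lower than in control cells. Of 13 stromal markers 4 rose and 0 fell against LMPPs, and 2 were higher and 1 lower than in control cells. Of 12 T lineage markers 7 rose and 0 fell against LMPPs, with a median of 1.11, and 0 were higher and 7 lower than in control cells in limma (0 and 11 at an unadjusted p under 0.05). Their part in the Schlafen differences was not tested.

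The genes beside the cluster gave a local comparison. Genes with a Schlafen symbol were left out of the flanks, among them Slfn5os, whose gene overlaps that of Slfn5. Of the 20 other named genes nearest to the cluster, 10 on each side, 1 passed as higher against LMPPs (1.75% of all genes) and 2 against control cells (1.9%). In limma 0 were lower in either comparison (1.31% and 2.49% of all genes). The median of the 20 was 0.02 against LMPPs and 0.05 against control cells. Of the 20, 2 were at least 2-fold apart between any groups, the chemokine genes Ccl5 and Ccl9, against 7.27% of all genes, so the flanks were not quieter than the rest. Ccl5, which attracts T cells and is made by T and NK cells, rose by 2.12 over LMPPs and was higher by 1.93 than in control cells. Ccl9 differed by 0.37 from LMPPs without passing and was higher by 2.78 than in control cells. Unc45b (0.03) and Ap2b1 (0.08), the flanking genes nearest to the cluster on either side, did not pass against LMPPs. Slfn10-ps, inside the cluster, read 8.02 in LMPPs, 8.63 and 8.89 in the Tcf1 arrays and 8.52 in the control array, and its difference of 0.74 from LMPPs did not pass (adjusted p = 0.0978, limma). Slfn14 is not analysed here.

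**Figure D5:**
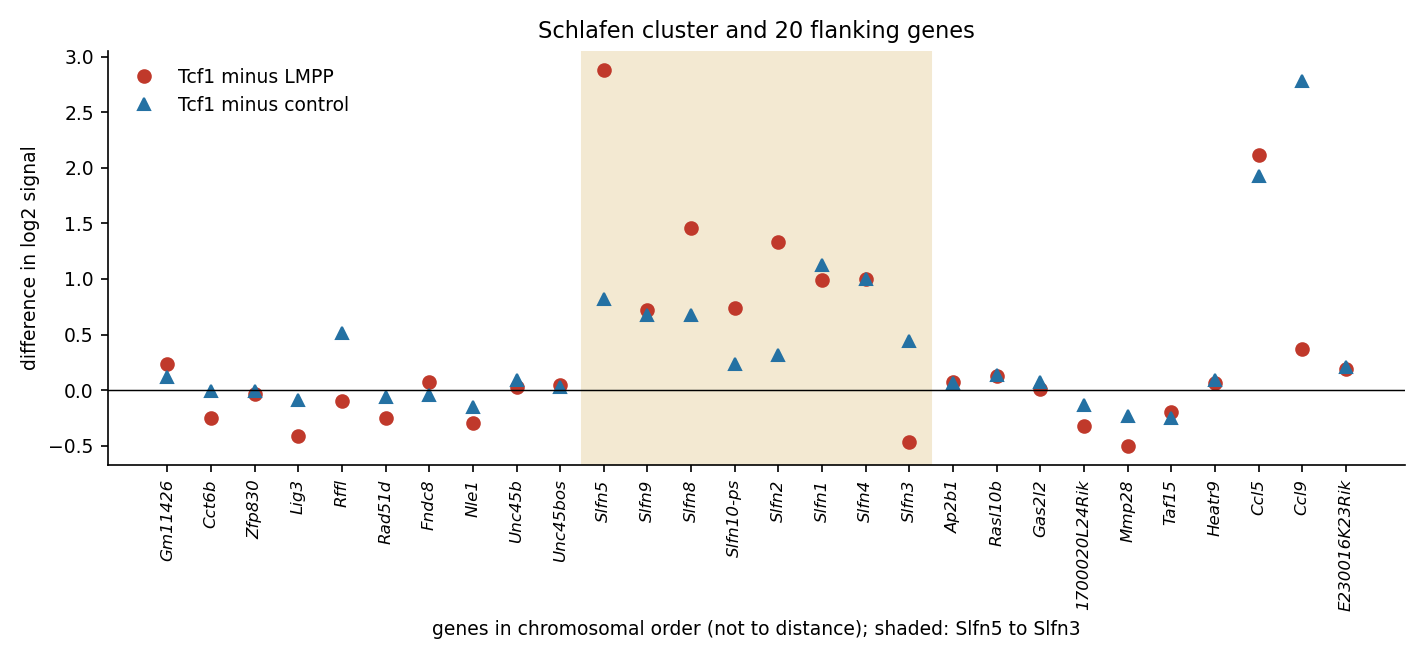
Differences in log2 signal of the genes in and around the Schlafen cluster, in chromosomal order without scale, for Tcf1 minus LMPP (circles) and Tcf1 minus control (triangles), with the span from Slfn5 to Slfn3 shaded. Of the 20 flanking genes 2 reach a 2-fold difference, Ccl5 at 2.12 and 1.93 and Ccl9 at 2.78 against control cells.

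The calls rest on the handling of the spread. With an unmoderated test, or with all 35399 probe sets in the fit, 0 members passed against either group. In the unmoderated test 6 of 19938 genes were higher and 6 lower against each group. With all probe sets in the fit, 0 of them passed as higher or lower against either group. At an unadjusted p under 0.05 in limma over all probe sets, 6 members were higher than in LMPPs and 5 than in control cells. Of the 35399 probe sets, 1125 and 1148 were higher in these 2 comparisons. Over the 14952 genes above the 25th percentile 6 members passed as higher against LMPPs and 5 against control cells. Of those 14952 genes, 593 and 604 passed as higher.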

How the data were processed

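Per the labels' protocols, Trizol-extracted total RNA went through the Ambion WT Expression and the Affymetrix WT Terminal Labeling kits. The deposited values are log2 signal per probe set, made with RMA and Partek 6.5, per the submitters' processing notes. The base was taken from RMA and the range of 3.44 to 14.45. The build behind the probe annotation is not given here, and scanner files were not used.

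Of 35399 probe sets, 21789 carried a single symbol, 1621 several and 11989 none. Symbols were checked through Entrez numbers against RefSeq (21698 matched, 0 renamed). The probe set with the highest mean stood for each of the 999 genes with several, leaving 19938 genes, with no filter on dim genes. The fit used limma 3.58.1 (R 4.3.3) with a mean per group and Benjamini-Hochberg adjustment over all genes. It had 1 residual degree of freedom, the Tcf1 pair's, beside 5.78 from the prior. Control cells against LMPPs had no test. Standard errors come from the fit. On data simulated for Tcf1 cells against LMPPs over 19938 genes, with spreads drawn from the prior, 38.1% of 2-fold and 99.3% of 4-fold changes were recovered and 8.34% of calls were false, and 47.5%, 99.4% and 10.4% against control cells. With spreads as fitted, 14.5% and 14.6% of calls were false. Each of these false shares was above the 0.05 threshold of the adjusted p, so calls near it are less certain. Only a small part of the genes was changed in each simulated set, and the false share depends on that part.

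Members and lists were chosen with earlier results of these data known. Named genes are the 7 members, up to 4 genes of each list with the largest difference, the 3 nearest profiles of the 3 members with the largest range, and flanking genes at least 2-fold apart. Other genes were named after their values were seen. Motifs and local alignments (Biopython 1.88) used RefSeq promoters of GRCm38.p6. Alternatives covered normalization, dim genes, probe set choice, the features fitted, the test and each Tcf1 replicate.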

Additional observations from a re-analysis of the deposited data

How the results depend on the processing

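Each member's difference kept its direction in every alternative run. Under rescaling Slfn5 minus LMPP lay between 2.85 and 2.91 and Slfn1 minus LMPP between 0.93 and 0.99. Some smaller differences moved more, Slfn2 minus control between 0.27 and 0.44 and Slfn3 minus LMPP between -0.50 and -0.35. The number of calls depended on the fit. Against LMPPs 349 genes were higher and 261 lower, and 4 Schlafen genes higher. Median centring gave 607 and 849 genes, the filter at the 25th percentile 593 and 603, the filter at the median (which drops Slfn1 and Slfn4) 561 and 628, a mean-variance trend 427 lower, the unmoderated test 6 and 6 with 0 Schlafen genes, and all probe sets 0 and 0 with 0 Schlafen genes (1125 and 2192 at an unadjusted p under 0.05, limma). Against control cells 378 genes were higher and 496 lower, with 2 Schlafen genes higher. Median centring gave 602 and 1044 with 4 Schlafen genes, the 25th percentile 604 and 833 with 5, the median 797 lower, the unmoderated test 6 and 6 with 0, and all probe sets 0 and 0 with 0 (1148 and 2554 at an unadjusted p under 0.05, limma). Slfn9 passed against both groups under both normalizations and both filters, with adjusted p from 0.0133 to 0.0403. Slfn8 passed against control cells after median centring and under both filters (adjusted p from 0.0186 to 0.0385), and Slfn4 against both groups under the 25th percentile filter and the trend (from 0.0121 to 0.0255). Between control cells and LMPPs 1709 features instead of 1102 were 2-fold apart over all probe sets, and 1 Schlafen gene instead of 2 after renewed quantile normalization, where Slfn2 was at 0.96. The cause of these shifts was not tested. No paired analysis was possible because LMPP and control cells have 1 array each. With either Tcf1 replicate left out there is no test, and the Slfn4 difference was 0.70 or 1.31 from LMPPs and 0.70 or 1.30 from control cells.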

Other observations

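Slfnl1, a Schlafen-like gene on chromosome 4 outside the cluster, read 7.08 in the LMPP array, 7.27 and 7.26 in the Tcf1 arrays and 7.13 in the control array. Its differences of 0.19 from LMPPs (adjusted p = 0.753, limma) and 0.14 from control cells (adjusted p = 0.863, limma) did not pass. Of 9 measured progenitor markers 1 rose and 5 fell against LMPPs, with a median of -0.91, and 7 were higher and 0 lower than in control cells. Flt3 fell by 0.91 from LMPPs and was higher by 4.24 than in control cells, while Kit rose by 1.54 over LMPPs and Meis1 and Hoxa9 differed by 0.60 and 0.53 without passing. Of 5 measured plasmacytoid dendritic cell markers, a cell type known for making type I interferon, 0 rose and 2 fell against LMPPs in limma (0 and 3 at an unadjusted p under 0.05). Against control cells 1 was higher, Cox6a2 by 1.61, and Siglech differed by 0.74 without passing (adjusted p = 0.0662, limma).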
